A study of Homo sapiens with 6 samples.

Results

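Apoptosis is carried out by 2 routes that meet at the caspases, proteases that are made as inactive zymogens. In the extrinsic route, death receptors at the cell surface recruit adaptors that activate initiator caspases. In the intrinsic route, BH3-only proteins release the pore formers BAX and BAK1 from survival members of the BCL-2 family, cytochrome c leaves the mitochondrion, and the APAF1 apoptosome activates CASP9. Inhibitor of apoptosis proteins (IAPs) hold caspases in check, and DIABLO and HTRA2 relieve that block. The genes described here are 43 named regulators and executors of this pathway, each found by its symbol in exactly 1 row of a table of 62703 genes.

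All 6 libraries came from the human gastric cancer line HGC-27, kept with 10% serum (FBS). In 3 of them (shGXYLT2, genotype labelled GXYLT2 knockdown) the cells stably carried an shRNA against GXYLT2, a xylosyltransferase acting on Notch receptors, and the other 3 came from cells labelled shControl, genotype WT. The study set out to learn how lowering GXYLT2 bears on proliferation, invasion and stemness. The labels name neither the number of shRNAs or clones nor whether the replicates were separate cultures, so p-values measure the spread between these libraries, which may be technical.

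Library totals were 17291138 to 24898425 estimated counts, and the 43 genes together took 0.259% to 0.273% of each library. GXYLT2 stood at 20.7, 22.9 and 20.2 CPM (counts scaled to a common library size with TMM factors) in shControl and at 5.27, 6.27 and 5.34 CPM in shGXYLT2, which was 73.5% lower (p = 0.1 in an exact permutation test, two-sided, the lowest value possible with 3 libraries a group). Of 5 epithelial markers KRT18, KRT19 and EPCAM averaged at most 0.151 CPM in either group, KRT8 1.57 and 1.78 CPM, and CDH1, the highest, 2.92 and 2.33 CPM in shControl and shGXYLT2. Of 6 gastric markers TFF1, TFF2, MUC5AC and GKN1 had no counts, CLDN18 averaged 0.160 and 0.212 CPM, and MUC6 rose from 2.05 to 4.22 CPM (edgeR adjusted p = 0.0029). Of 3 mesenchymal markers VIM averaged 2669 and 2526 CPM without passing, FN1 rose from 38.7 to 78.7 CPM and COL1A1 fell from 824 to 542 CPM (edgeR adjusted p of 2.3e-09 and 2e-06). MUC6, FN1 and COL1A1 thus moved with the groups, and their part in the results on the members was not tested. The summed level of 6 leukocyte markers was 1.62 to 2.19 CPM in shControl and 1.12 to 1.81 CPM in shGXYLT2, with CD3E at 0. In these bulk libraries, fewer cells expressing a gene and less of its RNA per cell cannot be told apart.

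Of the 43 genes, 42 had enough counts to be tested, 7 fell and 1 rose (quasi-likelihood test in edgeR, p adjusted by Benjamini-Hochberg over all 15693 tested genes, below 0.05). That is 19.0% of the tested members, beside 12.2% of all tested genes; 5.31% of all tested genes rose and 6.84% fell. The genes that fell were the kinases STK17B and DAPK1, the caspase inhibitor XIAP, the nuclease DFFB, the BH3-only gene PMAIP1, the death receptor TNFRSF10B and the survival gene BCL2L1, and the gene that rose was BCL2L11, which encodes the BH3-only protein BIM. STK17B was the single member to change at least 2-fold. The median log2 fold change of the 42 was -0.0035, against -0.0057 over all tested genes, and as many members had positive values (21) as negative (21). Pro-death and pro-survival genes were both among those that fell. The 2 groups of libraries did not overlap in 16 members (38.1%), 7 higher and 9 lower in shGXYLT2, beside 30.4% of all tested genes.

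The calls did not rest equally on every library. STK17B, XIAP and PMAIP1 passed under all 14 alternative settings, including each of the 6 fits with 1 library left out. The number of members that fell was 4 in each of the fits that left out shControl replicate 1, shControl replicate 2 or shGXYLT2 replicate 1. The number that rose was 0 in 4 fits, those lacking any 1 of the shControl libraries or shGXYLT2 replicate 1, and it was 2 (APAF1 and BCL2L11) in the fit lacking shGXYLT2 replicate 3.

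**Figure D1:**
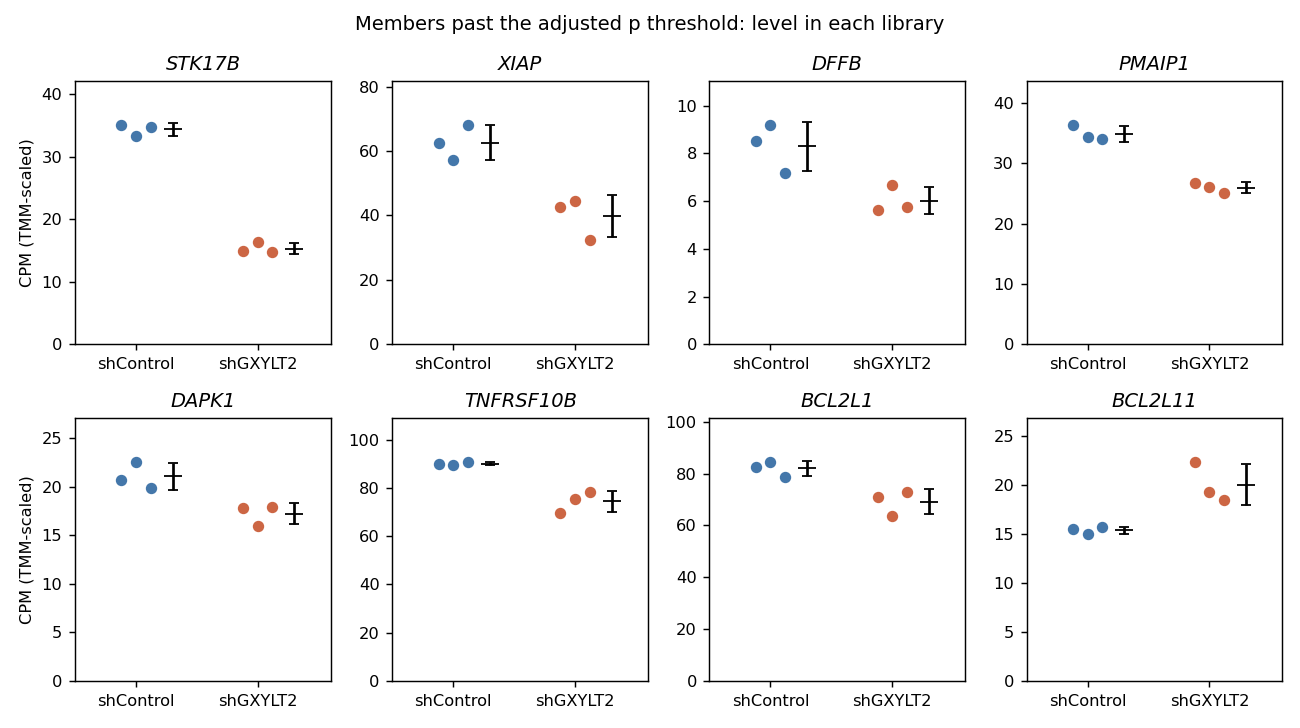
Level of the 8 members past the adjusted p threshold, in CPM scaled by TMM, in each of the 3 shControl (blue) and 3 shGXYLT2 (orange) libraries; the bar beside each group is the mean with its SD, and each y axis starts at 0. In all 8 genes the 2 groups are apart, from STK17B, at 14.7 to 16.3 CPM in shGXYLT2 against 33.3 to 35.1 CPM, to BCL2L11, the only one of these 8 that is higher in shGXYLT2.

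The death-associated protein kinases are serine/threonine kinases tied to several forms of cell death. STK17A and STK17B (DRAK1 and DRAK2) belong to this family. STK17B (ENSG00000081320, chromosome 2, 196133566 to 196176503, minus strand, GRCh38) was at 35.1, 33.3 and 34.8 CPM in the shControl libraries and at 14.9, 16.3 and 14.7 CPM in the shGXYLT2 libraries. The highest shGXYLT2 value was below the lowest shControl value by more than the whole spread within either group. Its mean level fell from 34.4 ± 0.983 to 15.3 ± 0.864 CPM (± SD, n = 3 a group), 2.25-fold, with a log2 fold change of -1.17 (SE 0.0823, edgeR adjusted p = 1.1e-08; up to 1.3e-06 over the alternatives). Its paralog STK17A, at a higher level per length, was at 138, 135 and 135 CPM and at 133, 139 and 127 CPM. These ranges overlap, and the 95% interval of the STK17A difference ran from -0.15 to 0.10 on the log2 scale, apart from that of STK17B (-1.34 to -1.0). DAPK1 (chromosome 9, 87497228 to 87708633, plus strand), the founding calcium/calmodulin-regulated member, was at 20.8, 22.6 and 19.9 CPM in shControl and at 17.8, 16.0 and 18.0 CPM in shGXYLT2. The groups stand apart by about as much as the values differ within a group. The fall was 18.2% (log2 fold change -0.29, SE 0.0907, edgeR adjusted p = 0.043), and it passed in 5 of 14 alternatives (adjusted p of 0.016 to 0.19). It was lost without each of shControl replicates 1, 2 and 3 and shGXYLT2 replicates 1 and 2, with upper-quartile scaling and with DESeq2 or no filter. DAPK3 averaged 24.7 ± 1.97 and 25.4 ± 3.82 CPM (± SD, n = 3 a group), with overlapping libraries.

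IAPs bind caspases or tag them and their partners with ubiquitin. XIAP, the family member known to inhibit caspases directly, lies on chromosome X, 123859724 to 123913979, plus strand. It was at 62.6, 57.2 and 68.1 CPM in shControl and at 42.8, 44.4 and 32.5 CPM in shGXYLT2. The third shGXYLT2 library was the lowest, and all 3 were below every shControl library. Its mean level fell from 62.7 ± 5.45 to 39.9 ± 6.46 CPM (± SD, n = 3 a group), 1.57-fold (log2 fold change -0.65, SE 0.104, edgeR adjusted p = 0.00099; at most 0.005 over the alternatives). Without that library the log2 fold change was -0.53. The other tested IAPs did not pass. BIRC6, a giant ubiquitin-conjugating IAP, averaged 99.9 and 92.0 CPM, with the third shGXYLT2 library again the lowest at 81.9 CPM. BIRC2 (cIAP1) averaged 38.0 and 40.4 CPM, and BIRC3 (cIAP2) was barely detected at 0.641 and 0.758 CPM, on 10 to 23 counts per library. Of the mitochondrial proteins that antagonise IAPs, DIABLO (SMAC) was at 27.3, 25.5 and 24.6 CPM in shControl and at 28.6, 27.6 and 30.0 CPM in shGXYLT2. All 3 shGXYLT2 values were above those of shControl, yet the difference of 11.4% (95% interval -0.770% to 24.9%) did not pass (edgeR adjusted p = 0.23). HTRA2 averaged 24.5 and 24.7 CPM, and it shares 483 exon bases with AUP1 on the opposite strand (89.1 and 87.8 CPM).

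Several of the genes that fell carry GACTCAT in the 3' UTR of their messenger RNA, a 7-base word that an earlier analysis of these same libraries chose because genes holding it had lower values in shGXYLT2. Its presence among the members is therefore a description and not independent evidence. The word was searched on the transcript strand in the longest annotated 3' UTR of at least 100 bases (GENCODE release 29), which 41 of the 42 tested members have. It was found in 4 of the 7 members that fell (57.1%), in 3 of the 33 uncalled ones (9.09%), not in BCL2L11, and in 8.35% of 12373 tested genes with such a 3' UTR. Among all 970 of these genes that fell, 246 held it (25.4%), and their 3' UTRs were longer, with a median of 2290.5 bases against 1471. The median log2 fold change was -0.28 in the 7 tested members with the word and 0.01 in the 34 without it. For all tested genes with and without it these medians were -0.10 and 0.00. The shRNA sequence is not given in the sources used here, and whether these sites act was not tested.

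The sites are shown for 5 of the 7 tested members that hold the word. The word is in capitals with up to 11 bases of the 3' UTR on each side, 5' to 3' on the transcript strand (GRCh38). The first 3 belong to genes that fell, and the other 2 to genes that did not pass.
STK17B, chr2:196137416-196137444, minus strand: cttttttctttGACTCATttggactgaat
XIAP, chrX:123911799-123911827, plus strand: attttcagtttGACTCATacagttaacac
DAPK1, chr9:87708269-87708297, plus strand: agaagacccctGACTCATcatttgtggca
BID, chr22:17734335-17734363, minus strand: gggcactgacgGACTCATgatttcttctt
HRK, chr12:116857007-116857035, minus strand: cctgcaatctcGACTCATttccagcatga

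The STK17B site starts at base 14 of a 3' UTR of 3881 bases, close to the stop codon, and the same transcript holds 2 further copies in its coding sequence (chromosome 2, 196145975 to 196145981 and 196137488 to 196137494). The XIAP site starts at base 4629 of 6798 and the DAPK1 site at base 916 of 1269. TNFRSF10B, which fell, also holds 1 copy. So does TNFRSF10D, which was not tested. CASP10, whose site is not shown, holds 1 copy at base 1915 of 4574 and did not pass. Its log2 fold change of 0.54 (edgeR adjusted p = 0.23) was the only positive one among the 7 tested members with the word. RIPK1, at 49.98 and 50.5 CPM with overlapping libraries, holds 1 copy in its coding sequence and none in its 3' UTR. Genes that fell without the word were PMAIP1, BCL2L1 and DFFB.

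**Figure D2:**
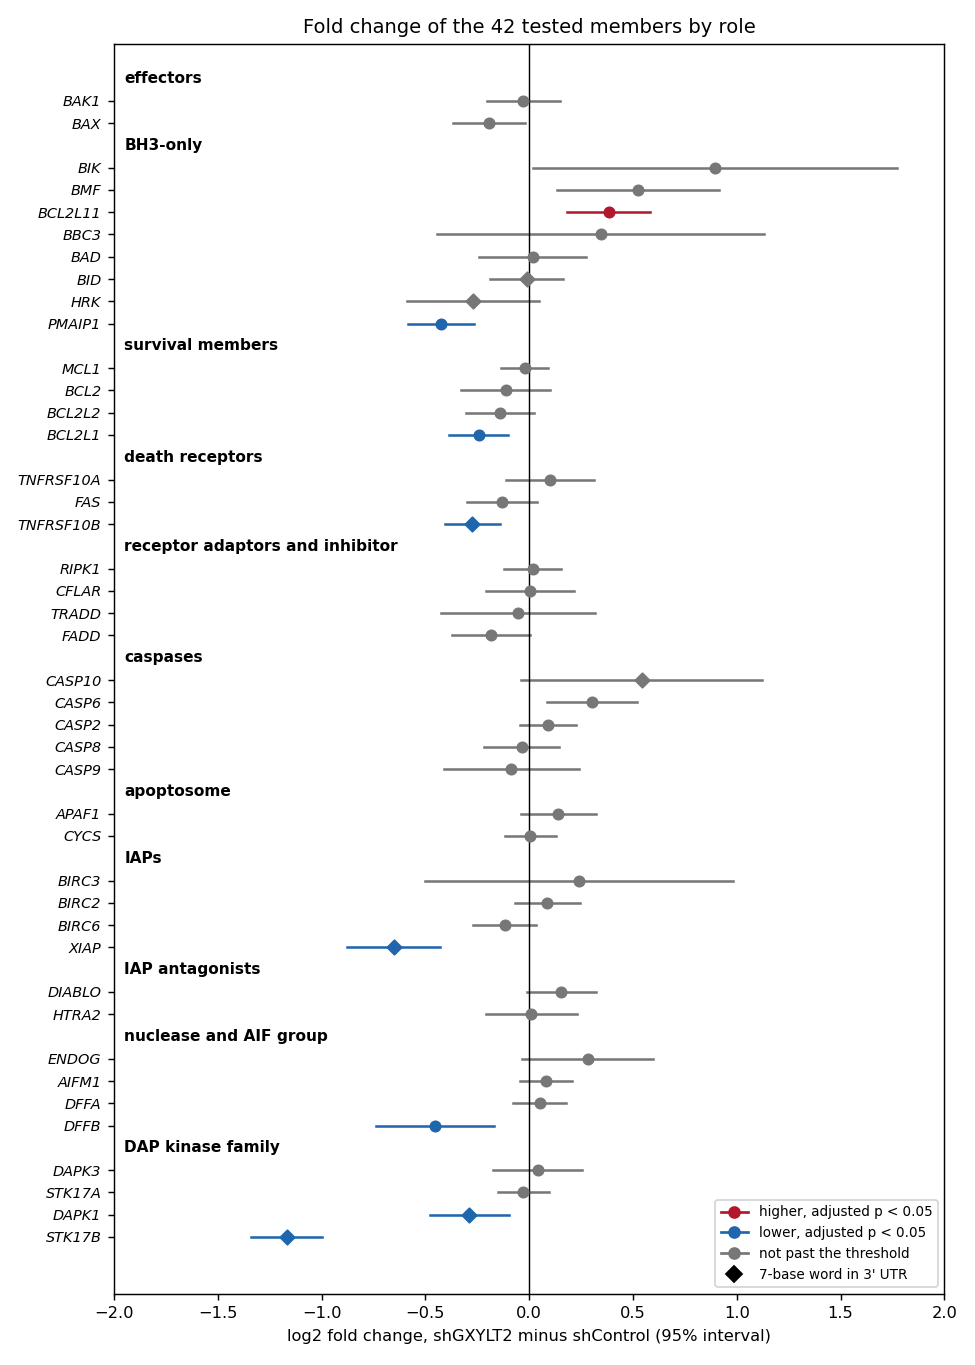
Log2 fold change (shGXYLT2 minus shControl) of the 42 tested members with its 95% interval, ordered by role; blue passed as lower, red as higher, gray did not pass, and diamonds mark members with the 7-base word in the 3' UTR. STK17B lies farthest to the left at -1.17, followed by XIAP at -0.65, while 4 of the 7 diamonds are blue.

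BH3-only proteins sense damage or stress and start the intrinsic route, and 8 of them are among the members. PMAIP1 (NOXA), which neutralises MCL1, was at 36.4, 34.3 and 34.0 CPM in shControl and at 26.8, 26.1 and 25.01 CPM in shGXYLT2. The 6 values fall into 2 tight groups. Its mean level fell from 34.9 ± 1.31 to 26.0 ± 0.891 CPM (± SD, n = 3 a group), by 25.5% (log2 fold change -0.42, SE 0.0757, edgeR adjusted p = 0.00089; 2.5e-05 to 0.013 over the alternatives). The gene lies on chromosome 18, 59899948 to 59904306, plus strand. BCL2L11 (BIM), which binds all the main survival proteins, moved the other way. It was at 15.5, 15 and 15.7 CPM in shControl and at 22.4, 19.3 and 18.5 CPM in shGXYLT2, so the first shGXYLT2 library was the highest and the controls were nearly equal. The mean rose from 15.4 ± 0.366 to 20.1 ± 2.07 CPM (± SD, n = 3 a group), by 30.3% (log2 fold change 0.38, SE 0.0954, edgeR adjusted p = 0.012; 0.0015 to 0.088 over the alternatives). The rise did not pass without shControl replicate 1 (adjusted p = 0.051), 2 (0.064) or 3 (0.051) or without shGXYLT2 replicate 1 (0.088). On chromosome 2, 111119378 to 111168447, BCL2L11 shares 727 exon bases with MIR4435-2HG, a long noncoding RNA on the opposite strand that fell from 21.4 to 14.8 CPM (edgeR adjusted p = 0.00095). The sources used here do not say whether counting was strand-aware, and the part of these shared bases in either value was not tested.

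The other 6 BH3-only genes did not pass. BMF, a sensor tied to the cytoskeleton, was at 2.01, 2.64 and 2.29 CPM in shControl and at 3.44, 3.18 and 3.37 CPM in shGXYLT2. Its groups were apart, and the difference of 43.9% had a 95% interval of 9.84% to 88.6% (edgeR adjusted p = 0.073; 0.039 to 0.27 over the alternatives, passing only with offsets for GC content and length). BIK was higher in each shGXYLT2 library too, but on 6 to 20 counts per library (0.354 and 0.662 CPM on average, edgeR adjusted p = 0.19). BBC3 (PUMA) rested on 7 to 22 counts per library, with an interval of -26.5% to 119%, so a doubling could not be told from no change at this depth. BID, which CASP8 cleaves to link both routes, averaged 32.1 ± 1.39 and 31.8 ± 3.35 CPM (± SD, n = 3 a group), and BAD averaged 9.08 and 9.22 CPM. HRK averaged 5.84 and 4.85 CPM (edgeR adjusted p = 0.28), with overlapping libraries.

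Survival members bind BH3-only proteins and keep BAX and BAK1 inactive. All 4 had negative log2 fold changes, as had 8026 of the 15693 tested genes, and 1 passed. The value was -0.02 for MCL1, and for BCL2 it was 0.03 without shControl replicate 3. BCL2L1 (BCL-XL; chromosome 20, 31664452 to 31723989, minus strand) was at 82.5, 84.7 and 78.8 CPM in shControl and at 71.1, 63.6 and 72.9 CPM in shGXYLT2. Each shGXYLT2 library was below each shControl library, the second being the lowest. The mean fell by 15.6%, from 82.0 ± 2.95 to 69.2 ± 4.95 CPM (± SD, n = 3 a group; log2 fold change -0.24, SE 0.0677, edgeR adjusted p = 0.023). Over the alternatives the adjusted p was 0.0001 to 0.12; the fall did not pass without shControl replicate 1, 2 or 3 (0.11, 0.12 and 0.057) or shGXYLT2 replicate 2 (0.075). ABALON, antisense to BCL2L1, had no counts. MCL1, a short-lived protein with a high messenger level, was at 246, 242 and 239 CPM in shControl and at 239, 243 and 234 CPM in shGXYLT2. Its 95% interval of -8.98% to 6.48% is narrow enough to leave out a change of the size seen in BCL2L1. BCL2 averaged 24.6 ± 4.17 and 22.9 ± 1.04 CPM and BCL2L2 (BCL-W) 44.3 ± 3.45 and 40.3 ± 3.01 CPM (± SD, n = 3 a group), both with overlapping libraries. BCL2L2 shares 813 exon bases with the read-through gene BCL2L2-PABPN1 (3.21 and 3.03 CPM), which the counting could have split.

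The pore-forming effectors did not pass. BAX was at 32.8, 32.6 and 30.3 CPM in shControl and at 29.4, 24.9 and 29.3 CPM in shGXYLT2. The highest shGXYLT2 library lay just under the lowest shControl library, a difference of -12.6% with a 95% interval of -22.5% to -1.30% (edgeR adjusted p = 0.15; 0.02 to 0.39 over the alternatives, passing only with the offsets for GC content and length). BAK1 averaged 26.8 ± 1.19 and 26.3 ± 2.29 CPM (± SD, n = 3 a group), with overlapping libraries.

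Death receptors carry an intracellular death domain that recruits FADD or TRADD once a ligand is bound. TNFRSF10B (DR5, a TRAIL receptor; chromosome 8, 23020133 to 23069179, minus strand) was at 90.01, 89.5 and 90.9 CPM in shControl and at 69.8, 75.6 and 78.1 CPM in shGXYLT2. The controls were nearly equal, and all were well above the highest shGXYLT2 library. Its mean level fell from 90.1 ± 0.736 to 74.5 ± 4.30 CPM (± SD, n = 3 a group), by 17.4% (log2 fold change -0.28, SE 0.0635, edgeR adjusted p = 0.0072). It passed in 13 of 14 alternatives (0.00013 to 0.058), the exception being the fit without shGXYLT2 replicate 1. The other TRAIL death receptor, TNFRSF10A (DR4), averaged 13.3 ± 0.825 and 14.3 ± 1.03 CPM (± SD, n = 3 a group; edgeR adjusted p = 0.59). FAS averaged 41.5 ± 3.36 and 37.9 ± 2.89 CPM (± SD, n = 3 a group; edgeR adjusted p = 0.33); it shares 380 exon bases with ACTA2 on the opposite strand, which fell from 127 to 101 CPM. TNFRSF10D, a TRAIL decoy receptor with a truncated death domain, had 0 counts in every shControl library and 3, 0 and 1 counts in shGXYLT2, at or under the 3 counts that a count of 0 allows, so no fold is given. The ligand genes were low as well, with TNFSF10 (TRAIL) at 0.0579 and 0.278 CPM, FASLG at 0.0147 CPM in shControl and 0 in shGXYLT2, and TNF at 0 in both groups.

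None of the 4 genes that act directly downstream of the receptors passed, and none had an unadjusted p below 0.05 in edgeR. FADD, the adaptor that brings in CASP8, was at 19.3, 18.3 and 19.4 CPM in shControl and at 16.98, 15.6 and 17.6 CPM in shGXYLT2. Its groups did not overlap, with a difference of -12.0% and a 95% interval of -22.7% to 0.252% (edgeR adjusted p = 0.21). RIPK1, a kinase at the branch between survival, apoptosis and necroptosis, was at 51.7, 49.0 and 49.2 CPM against 49.9, 51.6 and 50.1 CPM, and its interval was -8.07% to 11.2%. CFLAR (FLIP), which competes with CASP8, averaged 12.7 ± 0.929 and 12.7 ± 0.459 CPM, and TRADD 5.71 ± 0.943 and 5.48 ± 1.36 CPM (± SD, n = 3 a group).

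Of the 5 caspases among the members 0 passed in edgeR, where 1 (CASP6) had an unadjusted p below 0.05, and 0 passed with DESeq2 or limma-voom. CASP6, an executioner that cleaves lamins, was at 10.2, 10.4 and 9.50 CPM in shControl and at 12.6, 12.1 and 12.4 CPM in shGXYLT2. All 3 shGXYLT2 libraries were above the controls, with a difference of 23.3% and a 95% interval of 6.19% to 43.2% (edgeR adjusted p = 0.062; 0.047 to 0.23 over the alternatives, passing only with upper-quartile factors). CASP2, an initiator linked to genotoxic stress, averaged 63.5 ± 3.30 and 67.6 ± 1.37 CPM, and CASP8, the initiator of the extrinsic route, 24.8 ± 1.57 and 24.2 ± 1.80 CPM (± SD, n = 3 a group). CASP9, the initiator of the intrinsic route, averaged 4.81 and 4.52 CPM. CASP10, a relative of CASP8, was at 1.15, 0.762 and 1.496 CPM against 1.56, 1.63 and 1.89 CPM; its groups were apart on 13 to 42.2 counts per library, and its interval of -2.62% to 118% spans 0 (edgeR adjusted p = 0.23). In the apoptosome, CYCS (cytochrome c) averaged 1085 ± 26.1 and 1089 ± 82.9 CPM (± SD, n = 3 a group). The table also lists 41 pseudogenes of CYCS, whose summed counts were 1 to 7 per library, and reads from them could have been counted to CYCS. APAF1, its partner, was at 31.0, 30.4 and 32.2 CPM in shControl and at 34.5, 38.5 and 30.0 CPM in shGXYLT2; the third shGXYLT2 library was below all 3 controls. Its edgeR adjusted p was 0.34, and 0.041 without that library and 0.04 with the offsets for GC content and length (0.04 to 0.77 over the alternatives).

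The last step of apoptosis is the cutting of DNA. DFFB (CAD; chromosome 1, 3857267 to 3885429, plus strand), the nuclease that does this after its inhibitor is cleaved, was at 8.51, 9.20 and 7.17 CPM in shControl and at 5.63, 6.68 and 5.75 CPM in shGXYLT2. The groups are apart, but by less than the spread within shControl. The mean fell by 27.0% (log2 fold change -0.45, SE 0.135, edgeR adjusted p = 0.034). The pseudogene DFFBP, which shares sequence with it, had up to 5.54% as many counts as DFFB. The fall passed in 9 of 14 alternatives (0.014 to 0.16) and was lost with DESeq2 (0.097) and on leaving out shControl replicate 1 (0.12) or 2 (0.16), or shGXYLT2 replicate 1 (0.12) or 3 (0.062). DFFA (ICAD), that inhibitor, averaged 107 ± 1.83 and 111 ± 4.94 CPM (± SD, n = 3 a group). AIFM1, a mitochondrial flavoprotein that can move to the nucleus, was at 122, 118 and 122 CPM against 123, 126 and 134 CPM; its groups were just apart, with an interval of -2.97% to 15.4%. ENDOG, a mitochondrial nuclease, averaged 4.95 ± 0.887 and 5.98 ± 0.0379 CPM (± SD, n = 3 a group; edgeR adjusted p = 0.25); it shares 460 exon bases with SPOUT1 on the opposite strand (45.5 and 43.6 CPM).

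Across members, levels can be compared per length, here as CPM per kilobase of the gene length that the authors deposited. How that length was defined is not given in the sources used here, and for PMAIP1, BCL2, BCL2L1, CFLAR and CYCS it is shorter than the longest annotated 3' UTR alone (1292 against 1497 bases for BCL2L1), so that their places depend on it. In shControl CYCS came first at 1358 CPM per kilobase, followed by BCL2L1 at 63.5 ± 2.29, MCL1 at 61.4, AIFM1 at 56.0 and STK17A at 34.6. BCL2L1 and MCL1 differed by less than the SD of BCL2L1, and with a longer length BCL2L1 would stand lower in both groups. In shGXYLT2 the order near the top was CYCS, MCL1 at 60.4, AIFM1 at 59.3 and then BCL2L1 at 53.6 CPM per kilobase. Among BH3-only genes PMAIP1 was the most abundant per length in both groups (27.7 and 20.6 CPM per kilobase), ahead of BID (12.9 and 12.7). Before division by length PMAIP1 averaged 34.9 and 26.0 CPM and BID 32.1 and 31.8 CPM. The lead of PMAIP1 in shGXYLT2 thus rests on the deposited length. BCL2L11 stood at 3.02 and 3.94 CPM per kilobase. Among the 4 IAPs XIAP came next to BIRC2 in shControl, with 7.30 CPM per kilobase after 9.35, and was behind 2 others in shGXYLT2, with 4.65 after BIRC2 at 9.93 and BIRC6 at 5.87. STK17B fell from 6.52 to 2.90 CPM per kilobase, level with DAPK1 at 2.92. BIK, BBC3, CASP10, BIRC3 and BMF were all under 1 CPM per kilobase in both groups.

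**Figure D3:**
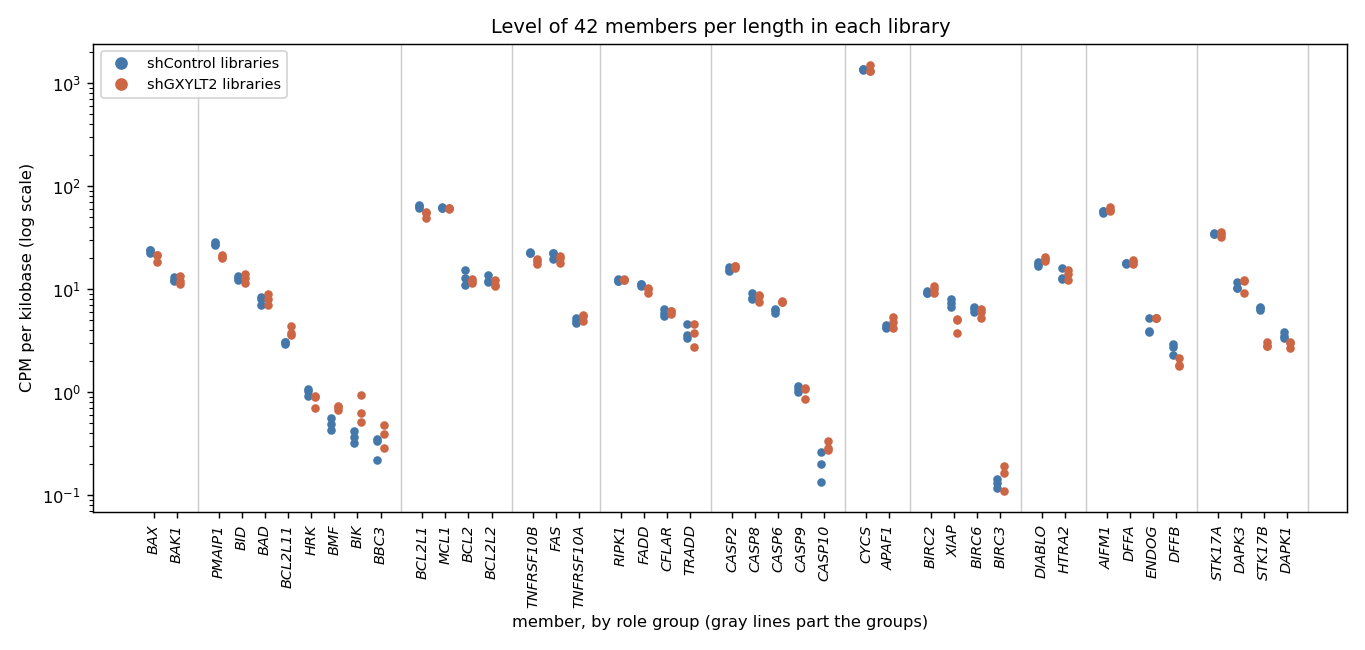
Level per length (CPM per kilobase, log axis) of the 42 members with counts in both groups, in each shControl (blue) and shGXYLT2 (orange) library, ordered by role. CYCS stands near 1358 CPM per kilobase and BIRC3 near 0.132, and the separation of the 2 colours is plainest for STK17B.

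A wider list of 57 cell death genes outside the members was read in the same fit. Of the 42 that could be tested, 4 rose and 2 fell, 14.3% beside 12.2% of all tested genes, with a median log2 fold change of 0.027. CYLD, a deubiquitinase that restrains NF-kB and favours RIPK1-dependent death, rose from 37.5 ± 0.333 to 46.6 ± 3.67 CPM (± SD, n = 3 a group; edgeR adjusted p = 0.0079; 7.1e-05 to 0.051 over the alternatives, the highest without shControl replicate 3). PDCD4, a translation inhibitor, rose from 48.7 to 60.1 CPM (edgeR adjusted p = 0.01; 2.8e-05 to 0.065 over the alternatives, lost on leaving out shControl replicate 1, at 0.065, or 3, at 0.061). The mitochondrial channel VDAC1 rose from 379 to 430 CPM and the inflammatory caspase CASP4 from 9.08 to 11.6 CPM (edgeR adjusted p of 0.035 and 0.038). VDAC1 passed in 9 of 14 alternatives and CASP4 in 7, and both were lost without any 1 of the 3 shControl libraries. BOK, a BAX relative, fell from 5.13 to 3.42 CPM and the death receptor TNFRSF21 (DR6) from 16.6 to 13.6 CPM (edgeR adjusted p of 0.021 and 0.049). BOK passed in 10 of 14 alternatives, its call ending on leaving out shControl replicate 1 or 2, or shGXYLT2 replicate 1, and TNFRSF21 in 4, losing its call in every fit with 1 library left out except that without shGXYLT2 replicate 3. With 1 library left out this wider list held 0 rises (shControl replicate 3 left out) to 6 rises (shGXYLT2 replicate 3 left out), and 0 to 3 falls.

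BIRC5 (survivin), an IAP relative of mitosis, was higher in all 3 shGXYLT2 libraries without passing (156 and 171 CPM, edgeR adjusted p = 0.16). The necroptosis genes RIPK3 and MLKL were at 0 and at most 0.0485 CPM on average, and CASP1 and GSDMD of pyroptosis averaged at most 0.107 CPM.

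**Figure D4:**
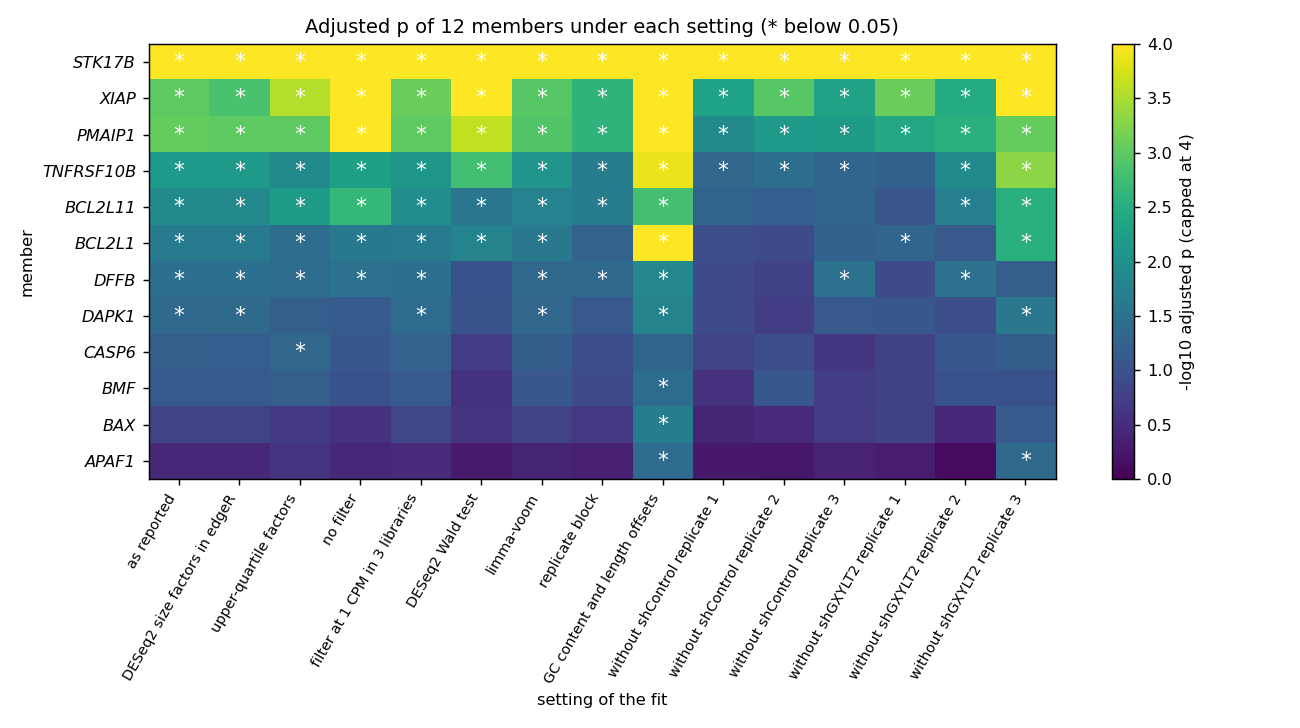
Adjusted p (as -log10, capped at 4) of 12 members in the reported fit and in 14 alternatives; an asterisk marks an adjusted p below 0.05. STK17B, XIAP and PMAIP1 carry an asterisk in every column, TNFRSF10B in all but the fit without shGXYLT2 replicate 1, while CASP6, BMF, BAX and APAF1 pass in 1 or 2 alternatives only.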

How the data were processed

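RNA from TRIzol extraction went into Illumina stranded mRNA libraries, per the labels' protocols. Values in the deposited table are estimated counts (12.3% not whole), to which the authors applied no normalization that the values show, with a gene length column of unstated definition. GRCh38.p13, fastp, HISAT2 and StringTie are named in the submitters' processing notes; the counting step is not given there.

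Columns were matched to samples by description, and groups and replicate numbers came from titles. The numbers in the column names skip values and differ from the title numbers for some libraries. Libraries with the same title number therefore do not always share a column number. Counts were rounded, filtered (filterByExpr), scaled by TMM and entered edgeR's robust quasi-likelihood fit, version 4.0.16 (R 4.3.3), with group as the only term; p-values are two-sided. Intervals (95%) use the t distribution of that fit. Alternatives were other scaling, filters, DESeq2 1.42.0, limma-voom (limma 3.58.1), a replicate block, offsets for GC content and length, and leaving out each library. The code was tested on simulated data. Annotation was GENCODE release 29, matched by identifier for 92.9% of genes.

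The members and lists were chosen with earlier results of these data known. Every member may be named. Per-library CPM is given for members past the threshold, for the non-overlapping of the rest except BIK, and for some others. CYCS, the most abundant member, is given by its means. From the added list of cell death genes, up to 4 risen and 4 fallen genes were named by adjusted p; other genes named from it were chosen after their values were seen. Between libraries of a group, counts differed by more than sampling noise, and more so in shGXYLT2. The chi-square per degree of freedom between pairs of libraries was 1.97 to 4.03 within shControl. Within shGXYLT2 it was 5.90 for replicates 1 and 2, and 8.645 and 11.07 for the pairs with replicate 3. Some results are not reported here.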

Additional observations from a re-analysis of the deposited data

How the results depend on the processing

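No result reversed. Of the 8 called members, STK17B, XIAP and PMAIP1 kept their call under all 14 alternatives. Upper-quartile factors gave 2 members called higher (BCL2L11 and CASP6), and 6 lower, against 1 and 7 in the reported fit. Offsets for GC content and length gave 3 members called higher (APAF1, BCL2L11 and BMF), 8 lower, 3088 genes called in all against 1907, and 7 rises in the wider cell death list. With 1 library left out, the members called higher ranged from 0 to 2, those called lower from 4 to 6, all genes called from 960 to 2347, and the wider list from 0 to 6 rises and from 0 to 3 falls. The wider list held 1 fall with upper-quartile factors, 1 with no filter, 1 with limma-voom and 0 with DESeq2. The replicate block gave 1 member called higher and 5 lower (BCL2L1 at adjusted p = 0.053 and DAPK1 at 0.077 in edgeR did not pass), 2 rises and 1 fall in the wider list, and a GXYLT2 log2 fold change of -1.92. Same-numbered libraries did not deviate together (correlations of -0.055, -0.21 and -0.262 over 10945 genes), so the titles' numbers are not taken as pairs. Causes of these shifts were not tested. Of the 34 uncalled members, 13 changed sign under at least 1 alternative, none with a call. Depth limits BBC3, BIK, BIRC3 and CASP10, which rested on 6 to 42.2 counts per library.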
